A study of Mus musculus with 12 samples.

Results

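The genes described here are 41 genes of the amino acid response and of the unfolded protein response, taken from a fixed list of names and measured in mouse leukemia cells with and without Rictor. They form an arm of 24 genes around the transcription factor ATF4 and an arm of 17 genes of the endoplasmic reticulum (ER) stress sensors, chaperones and ER-associated degradation, and the arms are treated apart. Each gene was read from its brightest probe set that the platform annotation ties to a single symbol. Of the 41 genes, 40 had such a probe set (Pycr1 had none), and 39 were bright enough to test, out of 18194 genes with a probe set and 12573 genes tested on the arrays. Slc7a11, the cystine carrier, was under the intensity limit of 7.70 and was not tested. It read between 2.67 and 6.75 on the 12 arrays.

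RNA came from leukemia cells labelled K+G–, sorted from mouse bone marrow after a first transplantation into recipient mice, once CD45.2+ cells made up more than 50% of the white blood cells. The 12 Affymetrix arrays form 4 groups of 3: MLL-AF9 leukemia with wild-type Rictor and with Rictor deleted (labelled RictorΔ/Δ), and MLL-NRIP3 leukemia of the same genotypes. All groups thus carry an MLL fusion and passed through a transplanted host. Rictor is an essential subunit of the kinase complex mTORC2. The series asks what follows from its loss in MLL-AF9 leukemia and uses MLL-NRIP3 leukemia for further study. The sources used here do not give the promoter that drove each fusion, the Cre line or the ages of the mice. They also do not say that arrays within a group stem from different animals, so the p-values below reflect only how far these arrays differ from each other.

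ATF4 is made when kinases phosphorylate the translation factor eIF2α, in response to amino acid shortage, ER stress or heme shortage. It raises genes that synthesise, import and charge amino acids, and in long stress it raises genes such as Ddit3 (CHOP), Trib3 and Chac1. In the ER, the sensors IRE1 (Ern1), PERK (Eif2ak3) and ATF6 are held by the chaperone BiP (Hspa5). When unfolded proteins accumulate, IRE1 splices the Xbp1 mRNA, ATF6 is cleaved into a transcription factor and PERK phosphorylates eIF2α, so the pathways meet at ATF4. Blood-forming cells depend on these pathways when protein synthesis is high, and plasma cells use the Xbp1 branch as part of their normal program.

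Motifs known from ATF4 targets and from ER chaperone genes were counted in the members' promoters, and some of those that hold one are shown. RefSeq promoter windows (250 bases before to 50 after the start, GRCm38.p6) were matched for 37 of the 41 members, without Atf6, Eif4ebp1, Manf and Slc7a5. The C/EBP-ATF element TGATGNAA, searched on both strands, was in 7 of 26 windows of the ATF4 arm (26.9%), in 1 of 15 of the ER arm (6.67%) and in 3.97% of all 32851 windows. In the ATF4 arm these windows were those of Asns, Chac1, Nupr1, Pycr1, Slc7a11, Trib3 and Vldlr. The stretches below surround the match (capitals, on either strand) in 3 members that passed the test in at least 1 of the models: Asns at chr6:7693210-7693247 (minus strand), Chac1 at chr2:119351034-119351071 (plus strand) and Vldlr at chr19:27216805-27216842 (plus strand). They are written 5′ to 3′ on the strand of the gene.
Asns: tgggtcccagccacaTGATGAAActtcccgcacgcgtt
Chac1: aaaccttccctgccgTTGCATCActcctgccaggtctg
Vldlr: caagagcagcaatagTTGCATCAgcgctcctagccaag

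The ER stress element, CCAAT followed after 9 bases of any kind by CCACG and searched on both strands, was in none of the 26 windows of the ATF4 arm, in 7 of 15 of the ER arm (46.7%) and in 0.119% of all windows. The 7 windows were those of Calr, Canx, Creld2, Dnajc3, Hsp90b1, Hspa5 and Pdia6. A second form, ATTGG followed after any 1 base by CCACG, was in 0.0365% of all windows and, within the members, in that of Herpud1. The letters TGACGTGG, whose last 5 letters are also the reverse complement of the CCACG that ends the other motifs, were in 0.676% of all windows and in no member's window. Shown with the match in capitals are Hspa5 at chr2:34772010-34772058 (plus strand), Creld2 at chr15:88819505-88819553 (plus strand), Dnajc3 at chr14:118937812-118937860 (plus strand) and Herpud1 at chr8:94386302-94386402 (plus strand), which holds a C/EBP-ATF element as well. A match describes letters in a window and is not a binding site.
Hspa5: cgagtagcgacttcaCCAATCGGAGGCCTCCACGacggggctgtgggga
Creld2: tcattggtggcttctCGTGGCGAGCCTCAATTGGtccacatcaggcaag
Dnajc3: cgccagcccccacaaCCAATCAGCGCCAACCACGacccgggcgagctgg
Herpud1: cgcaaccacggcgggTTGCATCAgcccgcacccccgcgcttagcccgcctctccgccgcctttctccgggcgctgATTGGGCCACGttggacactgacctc

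Some arrays and markers stand apart and bear on all results below. Median intensities per array ran from 8.16 to 8.36 in MLL-AF9 leukemia and from 13.6 to 14.2 in MLL-NRIP3 leukemia. Precision is limited by having 3 arrays in each group. MLL-NRIP3 control arrays 1 and 2 had a mean log2 hybridization control signal of 11.20 and 10.60, against 9.31 to 9.53 on the other 4 arrays of that model, and lower 5′ to 3′ ratios of Gapdh (0.562 and 0.738 against 0.881 to 0.965). Their part in the results was not tested beyond leaving them out and taking the control signal as a covariate. Without them control array 3 is the only control of that model. The median SD of a gene on the log2 scale was 0.08 and 0.06 in MLL-AF9 control and deleted cells and 0.15 and 0.14 in MLL-NRIP3 cells. In MLL-AF9 leukemia Xist was between 2348 and 2441 in controls and between 34.3 and 208 in deleted cells, so genotype and sex cannot be told apart there, and in MLL-NRIP3 leukemia it was between 2509 and 3558 on all arrays. The brightest Rictor probe set did not separate the genotypes: with Rictor deleted it read 77.9, 88.1 and 96.4 in MLL-AF9 cells, against 84.4, 92.4 and 83.7 in controls, and 84.5, 107 and 121 in MLL-NRIP3 cells, against 87.5, 111 and 139. Whether it lies in the deleted part is not given, so it checks nothing.

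Cell type markers also moved with the genotype, and bulk arrays cannot tell fewer cells of a type from less RNA per cell. All 9 mature neutrophil markers with a probe set were higher in Rictor-deleted MLL-AF9 cells, with a summed intensity of 28067 to 30612 against 9055 to 13102 in controls. In MLL-NRIP3 leukemia all 9 had a negative log2 fold change and limma called 3 of them lower, beside 1.53% of all genes called. The sums were 1651 to 1969 against 4871 to 21195. For the other cell types, markers given as lower or higher are those called by limma. Of 6 plasma cell and B lineage markers tested, Ighm and Jchain were lower in Rictor-deleted MLL-AF9 cells (sums of 1053 to 1141 against 1240 to 1393 over 7 with a probe set) and Ighm in MLL-NRIP3 cells (105 to 131 against 273 to 1388). Under the intensity limit in both genotypes were Sdc1, Prdm1 and Irf4 in MLL-AF9 leukemia and Jchain, Prdm1 and Cd79a in MLL-NRIP3 leukemia. Of 5 monocyte and macrophage markers, Adgre1 and C1qa were lower in Rictor-deleted MLL-AF9 cells (sums of 1381 to 1484 against 1556 to 1795), and limma called 0 in MLL-NRIP3 leukemia (1 at an unadjusted p under 0.05, 0 with a shared spread; 1045 to 1117 against 843 to 1785). Of 4 eosinophil and mast cell markers tested, Prg2 and Prg3 were lower in Rictor-deleted MLL-AF9 cells (sums of 425 to 550.4 against 1126 to 1258 over 6 with a probe set). In MLL-NRIP3 cells Cpa3 was higher (sums of 488 to 1827 against 370 to 422). The other 3 markers tested had a negative log2 fold change there, and the median of the 4 was −0.14. Epx and Fcer1a were under the limit throughout. Among 4 identity markers, Cd34 of stem and progenitor cells was lower with deletion in MLL-AF9 leukemia (−0.44 ± 0.10 (SE), limma adjusted p = 0.017) and higher in MLL-NRIP3 leukemia (1.41 ± 0.25 (SE), adjusted p = 0.0347), and the myeloid integrin Itgam was higher in MLL-AF9 leukemia (0.46 ± 0.12 (SE), adjusted p = 0.0326). The receptor Kit read 232, 159.6 and 192 in MLL-AF9 controls against 137, 157 and 135 with deletion (−0.39 ± 0.11 (SE), adjusted p = 0.0561). In MLL-NRIP3 leukemia Kit read 307, 390.2 and 326 against 572, 406 and 593 (0.58 ± 0.17 (SE), adjusted p = 0.135), so its groups did not overlap in either model. The part of these markers in the results below was not tested.

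In MLL-AF9 leukemia the ATF4 arm did not move as a block with loss of Rictor. Asns and Chac1 rose and Slc7a5 fell, while Atf4 itself and the serine synthesis genes did not pass the test. The other 19 of 22 members tested did not pass either, and the median log2 fold change of the arm was −0.01, the same as over all genes. Over both arms, all deleted values lay above all control values for 6 of 39 members and below for 5 (28.2%, beside 27.1% of all genes in either direction). A gene was called at a limma adjusted p under 0.05, and fold changes are on the scale of log2(intensity + 16), which understates those of dim genes. The 3 calls among 22 members (13.6%) stand beside 8.26% of all genes called in this comparison, 3.8% higher and 4.46% lower.

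**Figure D1:**
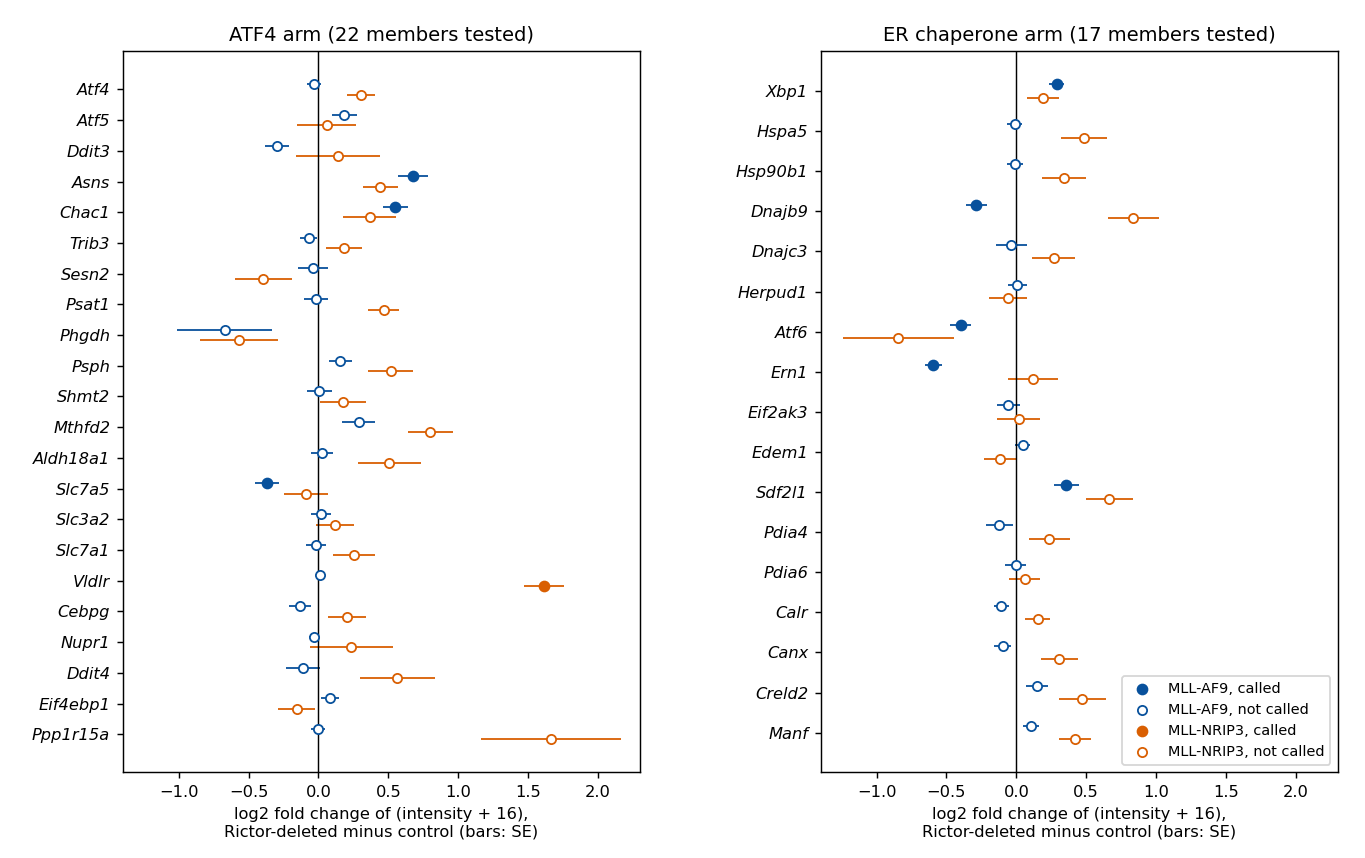
Log2 fold change (Rictor-deleted minus control, log2(intensity + 16)) of each of the 39 members tested, grouped by arm. Values are shown for MLL-AF9 and MLL-NRIP3 leukemia, with bars for the SE from limma. In MLL-NRIP3 leukemia 32 of 39 values lie above 0, with wide bars, and in MLL-AF9 leukemia 16 do.

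Atf4, the transcription factor that names the arm, read 605, 607 and 591 in the controls of MLL-AF9 leukemia and 596, 600.2 and 564 in Rictor-deleted cells. These ranges overlap (log2 fold change −0.03 ± 0.05 (SE), limma adjusted p = 0.768). The second probe set of Atf4 read 211 ± 6.44 in controls and 253 ± 26.5 in deleted cells (SD, n = 3 each), without overlap. It was not called (0.24 ± 0.08 (SE), adjusted p = 0.099 in limma over all probe sets above the limit). Ddit3, which encodes CHOP, read 69.3, 65.0 and 62.8 in controls and 54.4, 51.8 and 45.3 in deleted cells. All deleted values lay below all control values, and the change missed the threshold (−0.30 ± 0.08 (SE), adjusted p = 0.0532 in limma). It passed with array weights, with the filter at the 60th percentile, with a pseudocount of 1 and without a trend in the moderation (adjusted p from 0.033 to 0.0452).

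Asns, asparagine synthetase, which makes asparagine from aspartate and glutamine, read 38.1, 42.8 and 49.3 in the controls of MLL-AF9 leukemia and 73.9, 93.1 and 70.4 in deleted cells. The groups were far apart relative to their spread, and Asns rose 1.60-fold (log2 fold change 0.68 ± 0.11 (SE), limma adjusted p = 0.00266). Its second probe set also had a higher mean in deleted cells, 24.7 against 12.2. Chac1, which degrades glutathione and is a late ATF4 target, read 16.3, 14.0 and 11.5 in controls and 32.9, 28.1 and 22.7 in deleted cells. Every deleted value lay above every control value, and it rose 1.47-fold (0.55 ± 0.09 (SE), adjusted p = 0.00328). Chac1 lost its call when both models shared 1 estimate of the spread (adjusted p = 0.187), whereas Asns kept it (0.0121).

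Slc7a5, the light chain of the large neutral amino acid transporter, went the other way. It read 107, 101 and 107 in controls and 71.1, 89.4 and 74.4 in deleted cells. It fell 1.29-fold (−0.37 ± 0.09 (SE), limma adjusted p = 0.0241), with no overlap of the groups. That call ended without control array 1 or 3 or deleted array 1 or 3 (adjusted p from 0.0595 to 0.0998), at log2 fold changes of −0.36 to −0.31, and with a shared spread (adjusted p = 0.316). Its partner Slc3a2, the heavy chain, was at 0.02 and the cationic amino acid carrier Slc7a1 at −0.02, neither called.

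In the serine and folate part of the arm no member was called by its brightest probe set in MLL-AF9 leukemia. Mthfd2, a mitochondrial folate enzyme, read 90.2, 94.1 and 87.2 in controls and 134, 124 and 88.9 in deleted cells, where the third deleted array lay among the controls (0.29 ± 0.12 (SE), limma adjusted p = 0.175). Without that array Mthfd2 was called, at 0.45 (adjusted p = 0.0155). Its second probe set was called higher with all arrays, from 80.3 ± 4.19 to 103 ± 7.66 (SD, n = 3 each, 0.31 ± 0.08 (SE), adjusted p = 0.0459 in limma over all probe sets above the limit), with no overlap. Phgdh, the first enzyme of serine synthesis, had the largest SE of the arm in this model, with 158, 30.8 and 84.6, against 42.2, 44.1 and 41.8 in deleted cells. Control array 2 lay below the deleted cells and the other 2 controls above (−0.67 ± 0.34 (SE), adjusted p = 0.278), and without that array Phgdh was called lower, at −1.17 (adjusted p = 0.00282). Psat1, the aminotransferase of that path, overlapped between 214, 178 and 202 and 177, 209 and 200.3 (−0.02). Psph, the phosphatase that ends it, was at 0.16 ± 0.08 (SE) (adjusted p = 0.297).

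**Figure D2:**
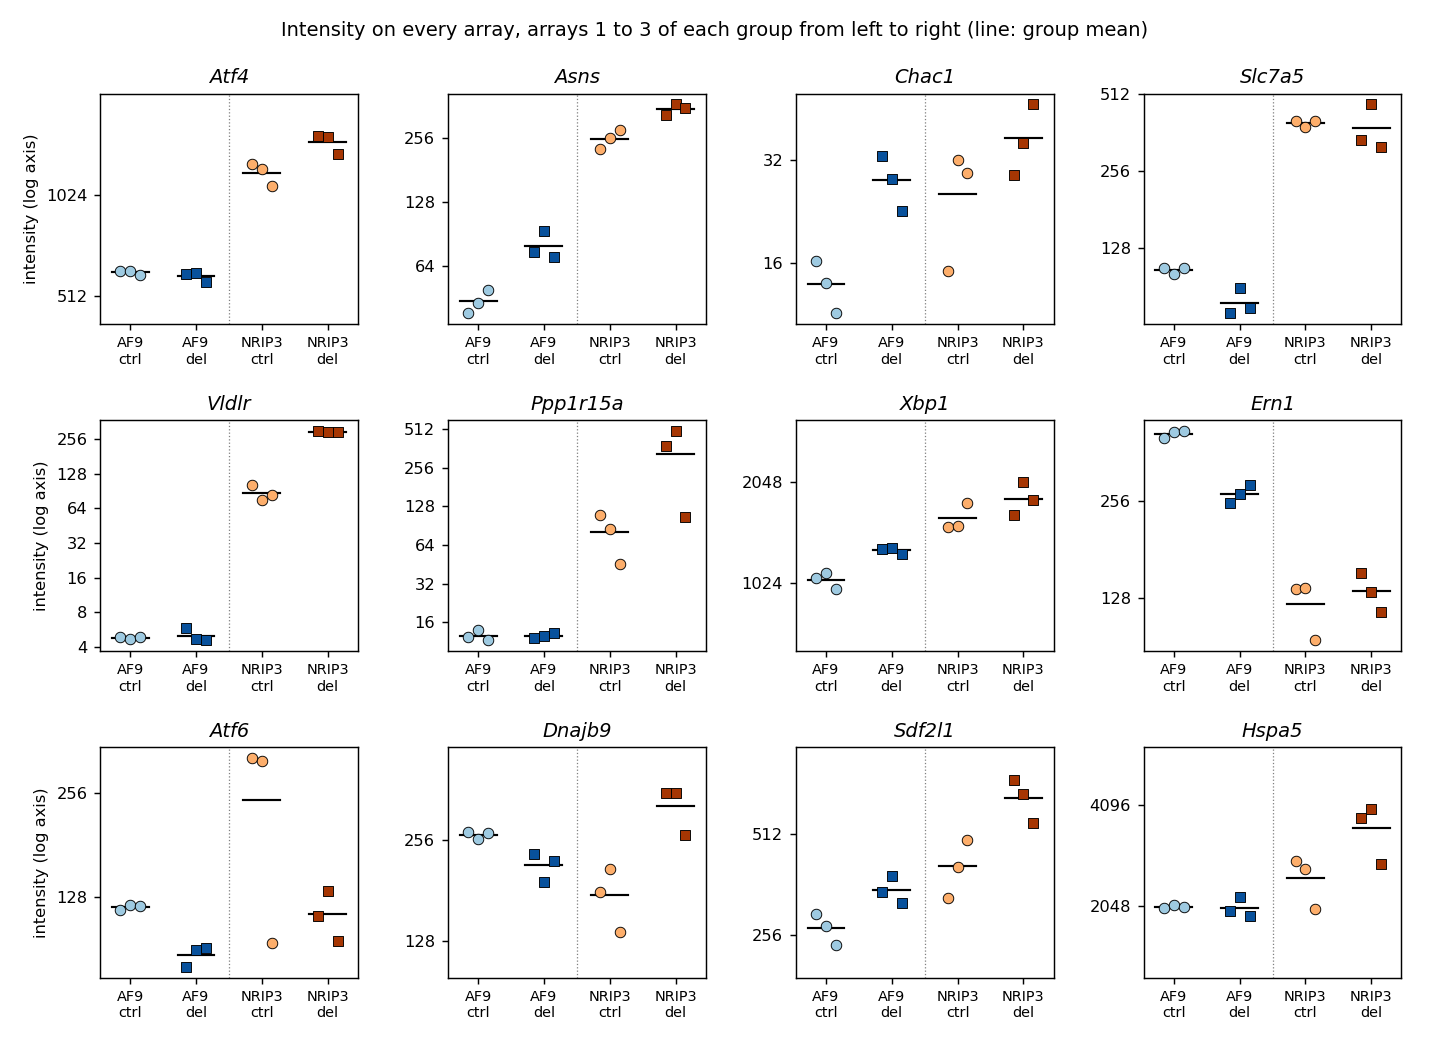
Intensity on each of the 12 arrays (log axis), with points for arrays and bars for group means. Shown is a selection of the members called by the fit of each model's own arrays or by the shared-spread fit. Mthfd2, Psat1, Psph, Creld2 and Manf, called by the shared-spread fit only, are not drawn. In MLL-NRIP3 leukemia the 3 Rictor-deleted values of Vldlr, from 292 to 299, lie above its 3 control values, from 74.7 to 101, while Vldlr is near the floor on all MLL-AF9 arrays.

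In MLL-NRIP3 leukemia most of the ATF4 arm had a positive log2 fold change with loss of Rictor, and 1 gene passed the test. Vldlr, which encodes the very low density lipoprotein receptor, rose 3.06-fold. Of the 22 members tested, 18 had a positive log2 fold change (81.8%, against 49.9% of all genes), and the median was 0.24 against 0.00 over all genes. The 1 call (4.55%) stands beside 1.53% of all genes. At an unadjusted p under 0.05, 7 members were higher and none lower, beside 17.7% of all genes in either direction. When 1 estimate of the spread was shared with the tighter MLL-AF9 arrays, 7 members were called, all higher (31.8%, beside 13.8% of all genes called and 5.96% called higher). The median SD of a gene was 0.15 and 0.14 in this model, against 0.08 and 0.06 in MLL-AF9 leukemia. Adjusted p from a shared spread therefore tend to be too small in MLL-NRIP3 leukemia and too large in MLL-AF9 leukemia. This holds for all shared-spread values given here. Over both arms, all deleted values lay above all control values for 12 of 39 members and below for 1 (33.3%, beside 22.5% of all genes in either direction).

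Vldlr read 101, 74.7 and 82.8 in MLL-NRIP3 controls and 299, 292 and 296 in Rictor-deleted cells. The deleted arrays were close to each other and far above the controls (log2 fold change 1.62 ± 0.14 (SE), limma adjusted p = 0.00204). All 6 of its probe sets had a positive log2 fold change in this model. Without control arrays 1 and 2 it was at 1.66. In MLL-AF9 leukemia it read between 4.59 and 5.82 on all 6 arrays, under the intensity limit.

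Atf4 read 1259, 1219 and 1089 in MLL-NRIP3 controls and 1532, 1524 and 1354 in deleted cells. Every deleted value exceeded every control value, at 0.30 ± 0.10 (SE) (limma adjusted p = 0.173, or 0.02 with a shared spread). The second probe set of Atf4 read 305 ± 27.4 in controls and 293 ± 11.3 in deleted cells (SD, n = 3 each), with overlap. Its log2 fold change was −0.05 ± 0.12 (SE), so the probe sets of Atf4 disagree. Ddit3 overlapped, with 168, 112 and 58.9 and 135, 126 and 94.5. The controls were spread more widely than the genotypes, and the estimate was 0.14 ± 0.30 (SE) (limma adjusted p = 0.841). The second probe set of Ddit3 also overlapped, at 0.77 ± 0.32 (SE) (adjusted p = 0.262 in limma over all probe sets above the limit). Atf5, a related factor (0.06), Cebpg, which pairs with ATF4 (0.20), Trib3, a pseudokinase (0.18), and Nupr1, a small stress protein (0.24), were not called.

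Of the amino acid and folate enzymes, 4 had groups that did not overlap, and none passed the test of the model's own arrays. Over the whole ATF4 arm, the groups of 7 of 22 members tested did not overlap (31.8%, beside 22.5% of all genes in either direction). Asns read 227, 256 and 281 in controls and 329.7, 371 and 354 in deleted cells (0.44 ± 0.13 (SE), limma adjusted p = 0.135, 0.0294 with a shared spread). Its groups did not overlap in either model. Mthfd2 read 138, 163 and 206 against 286, 288 and 337 (0.80 ± 0.16 (SE), adjusted p = 0.0567, 0.00561 shared). It was called without control array 3 (0.94, adjusted p = 0.0128). Psat1 read 961, 791 and 845 against 1092, 1231 and 1282 (0.47 ± 0.11 (SE), adjusted p = 0.088, 0.0123 shared). Psph read 86.4, 78.9 and 106 against 145, 147 and 116 (0.52 ± 0.16 (SE), adjusted p = 0.156, 0.0171 shared). In each of these 4 enzymes the deleted values were the higher ones.

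Other enzymes of the arm gave smaller or opposite values. Aldh18a1, which starts proline synthesis, was at 0.51 ± 0.22 (SE) (limma adjusted p = 0.283) and Shmt2, the mitochondrial serine hydroxymethyltransferase, at 0.18. Phgdh was at −0.57 ± 0.28 (SE) and Chac1 at 0.37 ± 0.19 (SE), with 15.2, 32.0 and 29.3 in controls and 29.0, 35.8 and 46.5 in deleted cells. Among the transporters, Slc7a5 overlapped between 403, 380.3 and 404 and 341, 469 and 319 (−0.09), Slc3a2 was at 0.12 and Slc7a1 at 0.25. None of these was called.

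The arm also holds regulators of mTOR signalling and of the end of the eIF2α response. Ppp1r15a, which encodes GADD34, the phosphatase subunit that reverses eIF2α phosphorylation, read 111, 84.6 and 45.2 in controls and 382, 498 and 106 in deleted cells. Deleted array 3 was close to control array 1, and the estimate was 1.67 ± 0.50 (SE) (limma adjusted p = 0.148, 0.021 shared). Without deleted array 3 it was called, at 2.3 (adjusted p = 0.0224). Immediate early and handling stress genes moved in the same model: all 13 had a positive log2 fold change (median 1.25), against 49.9% of all genes. Called higher were Dusp1, Fos and Jun (23.1%, beside 1.53% of all genes called in either direction). The summed intensity was 8891 to 16134 in deleted cells against 6258 to 6509 in controls. Jun read 2087, 1983 and 263 in deleted cells, so it too was lowest on deleted array 3. In MLL-AF9 leukemia 0 of the 13 were called by limma, beside 8.26% of all genes (1 at an unadjusted p under 0.05, 0 with a shared spread). Their part in the value of Ppp1r15a was not tested. Ddit4, an inhibitor of mTORC1, was at 0.57 ± 0.27 (SE), Sesn2, another inhibitor of mTORC1, at −0.40 ± 0.20 (SE) with 94.4, 51.4 and 50.2 against 45.1, 44.7 and 42.3, and Eif4ebp1, a repressor of translation, at −0.16, none of them called.

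In MLL-AF9 leukemia the ER arm split. Xbp1 and the chaperone partner Sdf2l1 rose, the sensors Ern1 and Atf6 and the cochaperone Dnajb9 fell, and the main chaperones Hspa5, Hsp90b1, Calr and Canx did not pass the test. The 5 calls among 17 members (29.4%) stand beside 8.26% of all genes. The median log2 fold change was −0.01 and 6 of 17 were positive. With 1 spread shared by both models 1 member was called, Ern1, beside 1.4% of all genes.

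Ern1, the ER sensor IRE1α that splices Xbp1, read 404, 422 and 425 in the controls of MLL-AF9 leukemia and 254, 270.5 and 287 in Rictor-deleted cells. It fell 1.51-fold (log2 fold change −0.59 ± 0.06 (SE), limma adjusted p = 0.000168), the lowest adjusted p of all members in this model. Over the mean of its probe sets, which takes in some under the intensity limit, the change was −0.17 and missed the threshold (adjusted p = 0.058). The second probe set of Ern1 read 44.5 ± 4.04 in controls and 36.1 ± 3.99 in deleted cells (SD, n = 3 each), without overlap. It was not called (−0.22 ± 0.09 (SE), adjusted p = 0.212 in limma over all probe sets above the limit), and the third, at −0.03, overlapped. Atf6, the sensor that is cleaved into a transcription factor, read 118, 121 and 121 in controls and 80.4, 90.3 and 91.3 in deleted cells. It fell 1.32-fold (−0.40 ± 0.07 (SE), adjusted p = 0.00683), with the groups well apart. Its other probe sets were at −0.23 and −0.08. The call of Atf6 ended with a shared spread (adjusted p = 0.931). The sensor PERK, Eif2ak3, was at −0.06 ± 0.08 (SE).

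Xbp1, the transcription factor downstream of IRE1, read 1062, 1099 and 985 in controls and 1295, 1305 and 1253 in deleted cells. It rose 1.22-fold (0.29 ± 0.05 (SE), limma adjusted p = 0.00601), and 3 of its 4 probe sets were called higher. These probe sets measure the mRNA and do not tell its spliced form from the unspliced. Xbp1 lost the call with a shared spread (adjusted p = 0.213).

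Among the folding proteins, Hspa5, the chaperone BiP, widely used as a reading of ER stress, overlapped between 2019, 2056 and 2036 and 1981, 2175 and 1908 in MLL-AF9 leukemia (−0.01 ± 0.05 (SE), limma adjusted p = 0.922). Sdf2l1, an ER chaperone partner, read 296, 273 and 238 in controls and 345, 384 and 318 in deleted cells. It rose 1.28-fold (0.36 ± 0.09 (SE), adjusted p = 0.0281), and the call ended without control array 2 or 3 or deleted array 1 or 2 (adjusted p from 0.0544 to 0.124, log2 fold change from 0.28 to 0.37). Dnajb9, a cochaperone of BiP that is a classical IRE1 and Xbp1 target, read 270.2, 258 and 269 in controls and 232, 192 and 222 in deleted cells. It fell 1.22-fold (−0.29 ± 0.07 (SE), adjusted p = 0.0363), and the call ended without any 1 array except deleted array 1 (adjusted p from 0.0575 to 0.136, log2 fold change from −0.31 to −0.21). The calls of Sdf2l1 and Dnajb9 also ended with a shared spread (adjusted p = 0.453 and 0.659). Hsp90b1 (GRP94), Pdia6 and Calr, which fold proteins in the ER, were at −0.01, −0.01 and −0.11. None of these was called by its brightest probe set. The second probe set of Hsp90b1 was called higher, from 606 ± 62.9 to 771 ± 58.8 (SD, n = 3 each, 0.34 ± 0.08 (SE), limma adjusted p = 0.0287), so its probe sets disagree.

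In MLL-NRIP3 leukemia no member of the ER arm passed the test of the model's own arrays, where 1.53% of all genes did, and 14 of 17 had a positive log2 fold change (82.4%, against 49.9% of all genes). The median was 0.24. With limma, 6 members were higher at an unadjusted p under 0.05 and none lower (35.3%, beside 17.7% of all genes in either direction), and with a shared spread 5 were called, all higher (29.4%, beside 13.8% of all genes): Hspa5, Dnajb9, Sdf2l1, Creld2 and Manf. These 5 are chaperones, their partners or secreted ER proteins, and the 3 sensors were not among them.

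Dnajb9 read 179, 210.0 and 136 in MLL-NRIP3 controls and 354, 353 and 265 in Rictor-deleted cells. The lowest deleted value, on array 3, was still above all controls (0.84 ± 0.18 (SE), limma adjusted p = 0.072, 0.00359 with a shared spread). Without control arrays 1 and 2 it was at 1.15. Sdf2l1 read 331, 408 and 491 against 742, 672 and 553 (0.66 ± 0.17 (SE), adjusted p = 0.101, 0.0119 shared). It was called without control array 3, at 0.80 (adjusted p = 0.0268). Sdf2l1 thus had no overlap of genotypes in either model.

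Hspa5 read 2780.4, 2634 and 2011 in controls and 3731, 3989 and 2734 in deleted cells. Deleted array 3 lay below control array 1, so the groups overlapped (0.49 ± 0.17 (SE), limma adjusted p = 0.183, 0.0348 with a shared spread). The second probe set of Hspa5 read 699 ± 79.0 in controls and 1161 ± 241 in deleted cells (SD, n = 3 each), without overlap. It was not called (0.70 ± 0.16 (SE), adjusted p = 0.0896 in limma over all probe sets above the limit), and the third, at −0.02, overlapped. Creld2, a secreted ER stress protein, read 162, 157 and 157 against 280.2, 232 and 178 (0.47 ± 0.17 (SE), adjusted p = 0.203, 0.0364 shared). Manf, a secreted ER protein that binds BiP, read 617, 622 and 689 against 980.5, 802 and 821 (0.42 ± 0.12 (SE), adjusted p = 0.123, 0.00874 shared). In Creld2 and Manf the groups did not overlap.

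Xbp1 overlapped in this model, with 1505, 1515 and 1781 in controls and 1639, 2046 and 1806 in deleted cells (0.19 ± 0.11 (SE), limma adjusted p = 0.419). Atf6 split its own control group, with 323, 317 and 94.6 in controls and 113, 134 and 95.7 in deleted cells. Control arrays 1 and 2, which stand apart in their control probes, were the high ones, and control array 3 was level with the lowest deleted value (−0.84 ± 0.39 (SE), adjusted p = 0.307). The value was −1.38 and called without control array 3 (adjusted p = 0.00447) and 0.23 without control arrays 1 and 2, so its direction rests on which control arrays are used. Ern1 read 137, 138 and 94.6 against 153, 134 and 116 (0.12) and Eif2ak3 was at 0.02.

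The remaining members of the arm are chaperones and degradation factors. Hsp90b1 was at 0.34 ± 0.16 (SE) and Canx, calnexin, at 0.31 ± 0.13 (SE), with limma adjusted p of 0.296 and 0.279. Dnajc3, a BiP cochaperone, was at 0.27, the disulfide isomerases Pdia4 and Pdia6 at 0.24 and 0.06, and Calr, calreticulin, at 0.15. Further probe sets of Dnajc3 above the intensity limit were at 0.81, 0.45 and 0.32, each without overlap, while its brightest overlapped. Herpud1 and Edem1, which act in ER-associated degradation, were at −0.06 and −0.11. None of these was called.

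Per array, the mean of the ATF4 arm over its 22 tested members, set against the control mean, was 0.27, 0.49 and 0.25 on the 3 Rictor-deleted MLL-NRIP3 arrays and between −0.05 and 0.04 on the controls, so all deleted arrays lay above all controls. The ER arm was at 0.27, 0.28 and 0.07 on the deleted arrays and between −0.06 and 0.07 on the controls, and deleted array 3 was level with the highest control. Over all genes the deleted arrays were at 0.02, 0.02 and −0.07. In MLL-AF9 leukemia the ATF4 arm was between −0.04 and 0.07 on all arrays, and the ER arm at −0.08, 0.00 and −0.05 on the deleted arrays.

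**Figure D3:**
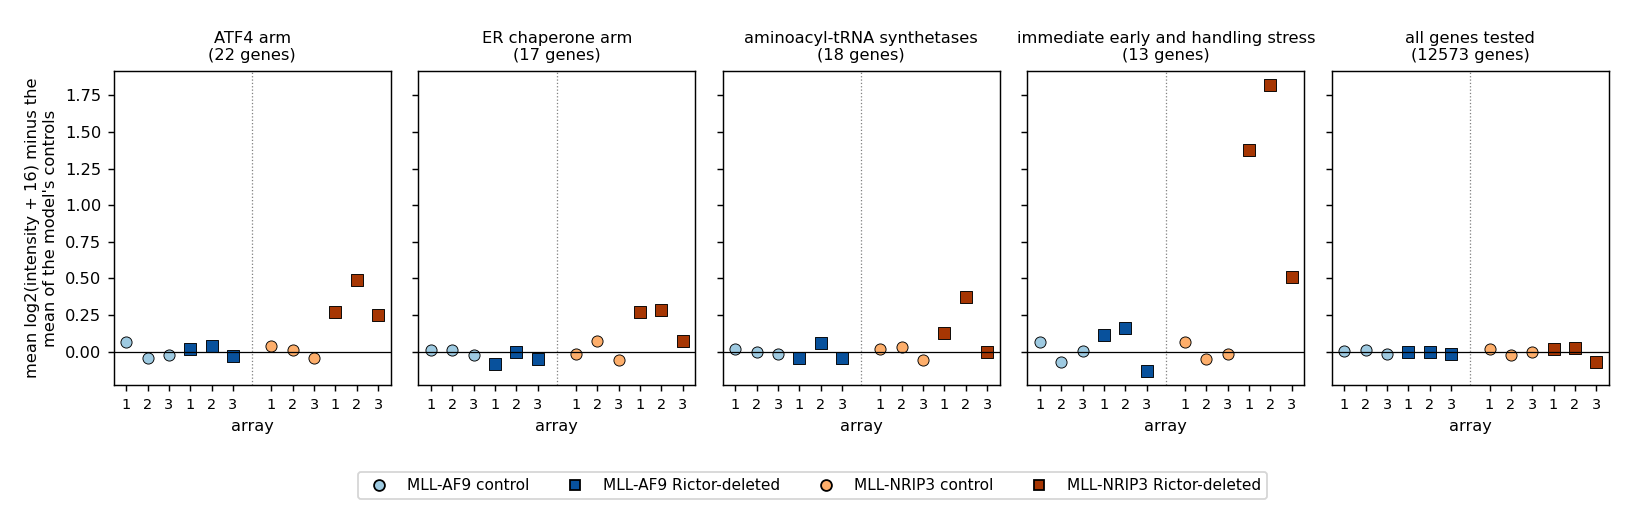
Mean deviation from the control mean of the model on each array (log2(intensity + 16)), 1 point per array. Panels show each arm, the aminoacyl-tRNA synthetases, the immediate early and handling stress genes, and all genes tested. The ATF4 arm is above 0.24 on the 3 Rictor-deleted MLL-NRIP3 arrays, and in MLL-AF9 leukemia both arms overlap between genotypes.

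The difference between the models' responses to loss of Rictor was tested directly, as the MLL-NRIP3 change minus the MLL-AF9 change. It was positive for 30 of 39 members (76.9%, against 51.4% of all genes). Called were 4 members, all with the higher response in MLL-NRIP3 leukemia (10.3%, beside 4.78% of all genes called and 2.25% called in that direction): Vldlr and Ppp1r15a of the ATF4 arm, and Dnajb9 and Ern1 of the ER arm. The median was 0.27 in the ATF4 arm and 0.31 in the ER arm, against 0.01 over all genes.

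Vldlr differed by 1.60 ± 0.15 (SE) (limma adjusted p = 3.37e-05) and kept its call under every alternative tried. It read under the intensity limit on all MLL-AF9 arrays and passed the filter through MLL-NRIP3 leukemia. Its difference thus repeats the MLL-NRIP3 change, and no MLL-AF9 response is read from it. Dnajb9 differed by 1.12 ± 0.20 (SE) (adjusted p = 0.00419) and also kept its call under every alternative. It fell in MLL-AF9 leukemia, while its 3 deleted MLL-NRIP3 arrays all lay above the controls. Ern1, lower with deletion in MLL-AF9 leukemia, differed by 0.72 ± 0.17 (SE) (adjusted p = 0.0292). Its call ended without MLL-AF9 control array 3 or deleted array 1, or MLL-NRIP3 deleted array 1 or 2 (adjusted p from 0.0514 to 0.137, difference from 0.63 to 0.71). It also ended with the mean of its probe sets, those under the intensity limit included (0.16, adjusted p = 0.327). Ppp1r15a differed by 1.67 ± 0.44 (SE) (adjusted p = 0.0472), a call that ended without any 1 array except MLL-NRIP3 deleted array 3 (adjusted p from 0.0528 to 0.164, difference from 1.26 to 1.90). It also ended with a shared spread, median centring, no filter, a pseudocount of 1 or 64, the mean of probe sets, no trend or the covariate. In all, 20 of 25 alternatives ended it.

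For the other members called in MLL-AF9 leukemia no difference between the models was called. Asns differed by −0.23 ± 0.21 (SE), with a 95% interval of −0.69 to 0.22, Chac1 by −0.18 ± 0.23 (SE) (−0.67 to 0.31) and Xbp1 by −0.10 ± 0.12 (SE) (−0.36 to 0.17). Sdf2l1 differed by 0.31 ± 0.21 (SE) (−0.15 to 0.76), Slc7a5 by 0.28 ± 0.19 (SE) (−0.12 to 0.68) and Atf6 by −0.45 ± 0.36 (SE) (−1.21 to 0.32). These intervals all hold 0 and are wide, so they do not show that the models respond alike. Hspa5 was at 0.50 ± 0.17 (SE) (0.14 to 0.85, limma adjusted p = 0.108) and was called without MLL-NRIP3 deleted array 3, at 0.66 (adjusted p = 0.0201). Atf4 was at 0.34 ± 0.11 (SE) (0.11 to 0.57, adjusted p = 0.0939), and its difference ran from 0.01 to 0.46 under the alternatives. Ddit3 was called without MLL-NRIP3 control arrays 1 and 2, at 1.13 (adjusted p = 0.0421, beside 1.96% of all genes called), against 0.44 ± 0.29 (SE) with all arrays. Atf6 was called with the lower response in MLL-NRIP3 leukemia when control array 3 of that model was left out, at −0.98 (adjusted p = 0.00324). Without control arrays 1 and 2 its difference was 0.62, so the sign turned with the controls used.

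**Figure D4:**
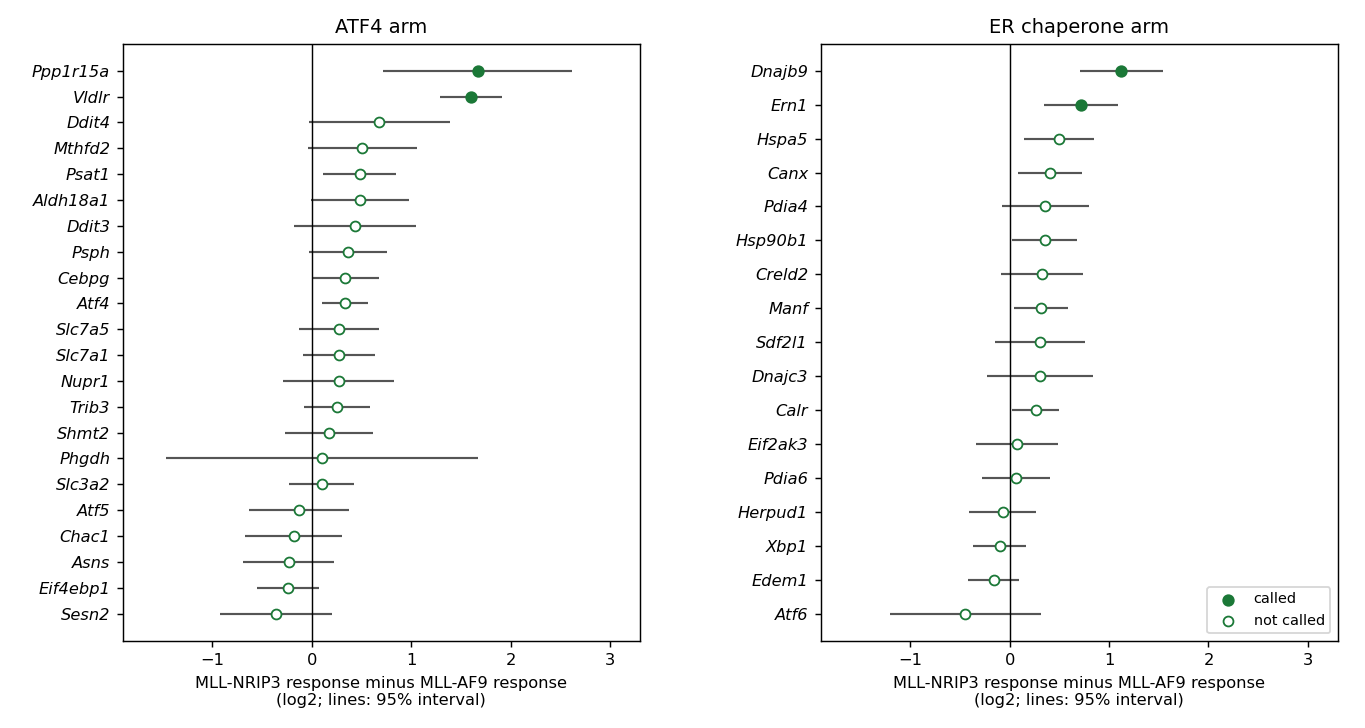
Difference of responses (MLL-NRIP3 minus MLL-AF9 log2 fold change) of each of the 39 members tested with its 95% confidence interval from limma, grouped by arm. The intervals of 11 members (28.2%) lie above 0 and none below, beside 18.5% of all genes at an unadjusted p under 0.05 in either direction, and 4 of the 11 are called after adjustment over all genes.

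Genes that share these pathways without being members gave the following counts. Of 18 aminoacyl-tRNA synthetases and their exporter, which charge tRNAs and include ATF4 targets, Hars rose in MLL-AF9 leukemia (0.31 ± 0.08 (SE), limma adjusted p = 0.037). In MLL-NRIP3 leukemia 0 were called by limma, and 15 of 18 were positive (83.3%, against 49.9% of all genes) with a median of 0.18. An unadjusted p under 0.05 was reached by 6, of which 5 were higher, beside 17.7% of all genes in either direction. With a shared spread 5 were called higher (27.8%, beside 5.96% of all genes). Of 15 further genes linked to ATF4, Jdp2, a transcription factor of the AP-1 group, rose in MLL-AF9 leukemia (0.62 ± 0.09 (SE), adjusted p = 0.00187). Cth, which makes cysteine, also passed the threshold, but it read under the intensity limit on all 6 arrays of that model and passed the filter through the other model, so no change is read from it. Gpt2, the mitochondrial alanine aminotransferase, rose in MLL-NRIP3 leukemia from 15.7, 14.3 and 17.8 to 38.2, 44.8 and 30.2 (0.74 ± 0.12 (SE), adjusted p = 0.0278). Gpt2 and Atf3, a stress factor downstream of ATF4, had higher responses in MLL-NRIP3 than in MLL-AF9 leukemia (differences of 0.77 ± 0.11 (SE) and 1.25 ± 0.24 (SE)), and Jdp2 a lower one (−0.81 ± 0.20 (SE)), with adjusted p of 0.000945, 0.00848 and 0.0343. Atf3 read 20.8, 16.7 and 7.63 in MLL-NRIP3 controls and 69.9, 81.7 and 30.8 in deleted cells and is also among the 13 immediate early genes. Gpt2 and Atf3 read under the intensity limit on all MLL-AF9 arrays, so their differences rest on the MLL-NRIP3 arrays.

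In the ER, 4 of 18 further folding and redox genes fell in MLL-AF9 leukemia and none rose (22.2%, beside 8.26% of all genes called and 4.46% called lower). With a shared spread 1 of them, Txndc5, was called. They were Txndc5, a disulfide isomerase (−0.74 ± 0.09 (SE)), Dnajc10, an ER reductase (−0.43 ± 0.06 (SE)), Sil1, the nucleotide exchange factor of BiP (−0.40 ± 0.08 (SE)), and Uggt1, the glycoprotein folding sensor (−0.29 ± 0.07 (SE)), with limma adjusted p from 0.000354 to 0.0365. Txndc5 read 134, 112 and 124 in controls and 64.6, 62.9 and 74.5 in deleted cells, with no overlap. In MLL-NRIP3 leukemia Pdia5, a disulfide isomerase, rose from 40.9, 55.3 and 51.6 to 183, 139.9 and 104 (1.25 ± 0.20 (SE), adjusted p = 0.0278). Ero1a, the oxidase that feeds the isomerases, fell there (−0.63 ± 0.11 (SE), adjusted p = 0.0314). Pdia5 also differed between the models (1.32 ± 0.24 (SE), adjusted p = 0.0056). Of 14 genes of ER-associated degradation, Os9 fell in MLL-AF9 leukemia (−0.26 ± 0.06 (SE)) and Edem3 differed between the models (0.62 ± 0.14 (SE), adjusted p = 0.0196). Of 13 eIF2 kinase and exchange factor genes and of 15 translocon genes, limma called 0 in either model, with 1 and 2 at an unadjusted p under 0.05 in each model and at most 1 called with a shared spread.

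Levels in the control cells of the models were set side by side after quantile normalization of all 12 arrays together, since the deposited values of the models are not on a common scale, and are given with no test. In the ATF4 arm the 3 MLL-NRIP3 controls all lay above the 3 MLL-AF9 controls for 12 of 22 members and below them for 3, with a median difference of 0.58 on the log2 scale (68.2% separate, against 58.2% of all genes, whose median was 0.05). In the ER arm this held for 3 and 5 of 17 members, with a median of −0.09 (47.1% separate). Among members above the intensity limit in both models, those furthest above were Asns (1.69), Psat1 (1.55) and Slc7a5 (1.27), and Ern1 (−2.16) and Dnajb9 (−1.09) were below. Vldlr was under the limit in MLL-AF9 controls, so its difference is not given.

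A member's other probe sets did not always give the sign of the brightest. Above the intensity limit, 26 members had 46 further probe sets. Of these, 36 had that sign in MLL-NRIP3 leukemia and 29 in MLL-AF9 leukemia, and 5 were called in each.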

How the data were processed

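Linear intensities, 1 per probe set and array, were used as deposited by the authors. No source used here states how they were background-corrected, summarised or normalized, and each model looks normalized on its own. Per the labels' protocols, 7 µg of total RNA per array was isolated with Trizol and made into biotin-labelled cRNA.

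Of 45101 probe sets, 34958 had 1 symbol, 932 several and 9211 none. Genes under a mean intensity of 7.70, the 40th percentile, were left out. Values were taken as log2(intensity + 16). Limma 3.58.1 in R 4.3.3 (eBayes with trend) was fitted to the 6 arrays of each model, 2-sided, adjusted by Benjamini-Hochberg over 12573 genes. The difference used all 12 arrays with a weight per model. Scripts were tested on simulated data. Tables and figures used Python 3.11.15, pandas 2.3.3 and matplotlib 3.10.9. Exact permutation of 3 against 3 arrays reaches at best p = 0.1, so none was run.

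Members and lists were chosen with earlier results of these data known. Per-array values were given for Atf4, Ddit3, Asns, Xbp1 and Hspa5, for members called by either fit and for up to 6 more per arm with the smallest p; other lists gave up to 4 genes each. Genes beyond this rule were named after their values were seen. Equal replicate numbers did not pair the arrays (correlation of deviations from −0.14 to 0.06).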

Additional observations from a re-analysis of the deposited data

Results flagged for a closer look

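For 4 members the response to loss of Rictor differed between the models by the test of the difference itself (limma, 12 arrays, MLL-NRIP3 minus MLL-AF9 log2 fold change): Vldlr at 1.60, Ppp1r15a at 1.67, Dnajb9 at 1.12 and Ern1 at 0.72. Vldlr is near the floor in MLL-AF9 leukemia, so its difference rests on the MLL-NRIP3 arrays, and Ppp1r15a on 2 of 3 deleted arrays. The call of Ppp1r15a ended in 20 of 25 alternatives and that of Ern1 in 5. In MLL-AF9 leukemia sex cannot be told apart from genotype, which touches all 4.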

How the results depend on the processing

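Over 2415 member results under the alternatives, 2315 stayed on the same side of the threshold, 49 calls ended, 51 were gained (24 with array weights, 11 with 1 spread shared by both models) and 0 called values changed sign, while 85 values called in neither setting did. The alternatives of leaving out MLL-NRIP3 control arrays 1 and 2 and of taking the hybridization control signal as a covariate were chosen after seeing the data.

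Calls in MLL-AF9 leukemia went from 3 to 1 (ATF4 arm) and from 5 to 1 (ER arm) with a shared spread, and the ER arm had 3 with the mean of probe sets or the covariate. Its median went from −0.013 to 0.024 and −0.046 with these. Leaving out each array in turn gave 2 to 4 calls (ATF4 arm) and 3 to 4 (ER arm), with medians from −0.02 to 0.01 and from −0.066 to 0.0040.

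In MLL-NRIP3 leukemia the ATF4 arm went from 1 call to 7 with a shared spread or array weights, and to 2 with the filter at the 60th percentile. The ER arm went from 0 to 5 with a shared spread and to 8 with array weights. With array weights 23.9% of all genes were called in this model and with a shared spread 13.8%, against 1.53% in the main fit. The ATF4 median of 0.24 was 0.30 with a pseudocount of 1 or the covariate, 0.17 with a pseudocount of 64 or the mean of probe sets, 0.15 with array weights and 0.31 without control arrays 1 and 2. The ER median was 0.14 with the mean of probe sets. Leaving out each array gave 1 to 2 and 0 to 2 calls, with medians from 0.22 to 0.31 and from 0.16 to 0.29.

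For the difference of responses, the ATF4 arm went from 2 calls to 1 with a shared spread, median centring, no filter, a pseudocount of 1 or 64, the mean of probe sets, no trend or the covariate, and to 6 with array weights. The ER arm went from 2 to 1 with the mean of probe sets and to 7 with array weights. Array weights called 20.1% of all genes in the difference, against 4.78% in the main fit. Leaving out each array gave 1 to 2 and 1 to 3 calls. Over all genes, calls went from 192 to 1734 in MLL-NRIP3 leukemia and from 1039 to 176 in MLL-AF9 leukemia with a shared spread.

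With the replicate number as a block, the ATF4 arm had 2 calls and the ER arm 1 in MLL-NRIP3 leukemia, where Ppp1r15a and Dnajb9 gained a call (limma adjusted p of 0.0393 and 0.0443), and Hspa5 gained one in the difference (0.0294), which gave the ER arm 3. The causes of these changes were not tested. Dim genes, such as Vldlr in MLL-AF9 leukemia, are limited by signal near the floor.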
